A study of Mus musculus with 96 samples.

Results

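Hematopoietic cells (HCs) of the mouse heart were compared between 7 days after acute myocardial infarction (D7) and unoperated hearts (D0) by small RNA sequencing. The comparison rests on 7 of the 96 libraries of the series, namely D7 replicates 1 to 4 and D0 replicates 1, 2 and 4. A library was used when its counts on mature microRNAs (miRNAs) summed to at least 100000. D0 replicate 3 held 18286 such counts and was left out, so 7 of the 8 HC libraries of these days remained. All mice were young adult C57Bl/6J males. Infarction was induced by permanent ligation of a branch of the left anterior descending artery, and the D0 mice had no surgery, so the effect of the infarct and that of the operation cannot be told apart. HCs were taken with magnetic beads against CD45, a surface protein of leukocytes, from what stayed in suspension after cardiomyocytes (CMs) had been spun out of the digested heart. Endothelial cells (ECs) and fibroblasts (FBs) were isolated from the same suspension. For each library the RNA of 3 mice (2 if a sample was lacking) was pooled, so a library is 1 pool of animals.

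A miRNA is a short RNA cut from a hairpin, which gives a 5p and a 3p arm. Loaded into an Argonaute protein, it pairs with messenger RNAs mainly through its seed, bases 2 to 8, and lowers their stability or translation. Leukocytes are marked by miR-142a, which is made in nearly all of them, and by miR-223, which is highest in neutrophils and monocytes. The CD45-positive cells of a resting heart are mainly resident macrophages and lymphocytes. After infarction, neutrophils and monocytes enter, and by the end of the first week macrophages that clear debris and take part in scar formation prevail.

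The sequences below are those of miRNAs on which the results turn, taken from RefSeq (GRCm38.p6), 5′ to 3′, with the seed in capitals. RefSeq held a mature sequence for 515 of the 635 miRNAs tested. The first set is of miRNAs that were higher at D7, with some of the paralogs that share a seed.
miR-21a-5p: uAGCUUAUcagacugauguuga
miR-142a-5p: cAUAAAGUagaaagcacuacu
miR-142a-3p: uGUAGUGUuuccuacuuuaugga
miR-147-5p: uGGAAACAuuucugcacaaacuag
miR-210-3p: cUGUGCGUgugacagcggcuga
miR-340-5p: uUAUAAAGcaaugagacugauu
miR-221-3p: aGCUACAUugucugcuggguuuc
miR-222-3p: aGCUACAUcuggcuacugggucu
miR-7a-5p: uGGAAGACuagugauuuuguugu
miR-7b-5p: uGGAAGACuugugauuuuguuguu
miR-34a-5p: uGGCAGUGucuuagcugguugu
miR-34b-5p: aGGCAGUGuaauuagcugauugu
miR-17-5p: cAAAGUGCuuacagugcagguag
miR-20a-5p: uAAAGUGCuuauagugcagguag
miR-20b-5p: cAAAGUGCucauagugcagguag
miR-93-5p: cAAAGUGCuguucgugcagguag
miR-106a-5p: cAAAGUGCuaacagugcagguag
miR-106b-5p: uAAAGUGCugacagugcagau

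A second set is of abundant miRNAs that were lower at D7. It holds members of 3 families and a pair that lies on opposite strands of one place in the genome. The members were printed because they fell, and not all members of the miR-30 family did, such as miR-30b-5p.
miR-126a-3p: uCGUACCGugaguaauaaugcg
miR-126b-5p: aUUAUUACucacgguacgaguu
miR-499-5p: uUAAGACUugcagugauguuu
miR-99a-5p: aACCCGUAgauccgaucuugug
miR-99b-5p: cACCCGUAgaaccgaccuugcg
miR-100-5p: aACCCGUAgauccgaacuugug
miR-125a-5p: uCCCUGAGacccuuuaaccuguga
miR-125b-5p: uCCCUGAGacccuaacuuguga
miR-30a-5p: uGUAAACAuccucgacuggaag
miR-30c-5p: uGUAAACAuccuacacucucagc
miR-30e-5p: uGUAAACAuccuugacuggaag

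The D0 libraries held 26449253 to 29504666 counts on mature miRNAs and the D7 libraries 8217355 to 14883797, so depth separated the days without overlap. Reads with no match to a mature miRNA made up 34.3% to 39.6% of the total at D0 and 49.7% to 57.5% at D7, and the part of both differences in the results was not tested. Levels are CPM, that is counts in 1000000 of the library size scaled by TMM, a normalization on the miRNAs shared between libraries. TMM factors were 0.751 to 0.783 at D0 and 0.990 to 1.10 at D7. Values of single libraries are given in the order D0 replicates 1, 2 and 4, then D7 replicates 1, 2, 3 and 4, and fold changes are log2 values with their standard error (SE). D7 replicate 2 stood apart in a group of miRNAs described below, and results that rest on it are given with and without it.

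Of the 1978 mature sequences, 635 had enough counts in HCs to be tested, and 292 of them, or 46.0%, differed between D7 and D0 (edgeR quasi-likelihood test, Benjamini-Hochberg adjusted p under 0.05). The calls were 168 miRNAs higher at D7, or 26.5% of those tested, and 124 lower, or 19.5%. When library size alone set the scale, these counts were 289 higher and 73 lower, and the median log2 fold change of all 635 moved from 0.15 to 0.61, so that 79.8% of the calls were rises instead of 57.5%. Of the 292 miRNAs, 241 were called under both scalings, all in the same direction. The change of scaling shifted all log2 fold changes by nearly the same amount, so calls in opposite directions were hardly possible. For 5 of the 292 the direction was opposite with library size alone, where they were not called. Without D7 replicate 2 the counts were 148 higher and 121 lower. The 7 libraries separated the days without overlap for 304 miRNAs, 47.9% of those tested, of which 162 stood above D0 and 142 below. On the TMM scale, falls prevailed among abundant miRNAs and rises among scarce ones. Among the 163 miRNAs that averaged 100 CPM or more, 28 rose and 57 fell, whereas among the 326 under 10 CPM, 92 rose and 25 fell. These counts by level were not repeated with library size alone, where 73 miRNAs fell in all. The list of the miR-297, miR-466, miR-467 and miR-669 families, described below, held 48 of the rises, and 13 of its 56 tested members averaged 10 CPM or more.

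**Figure D1:**
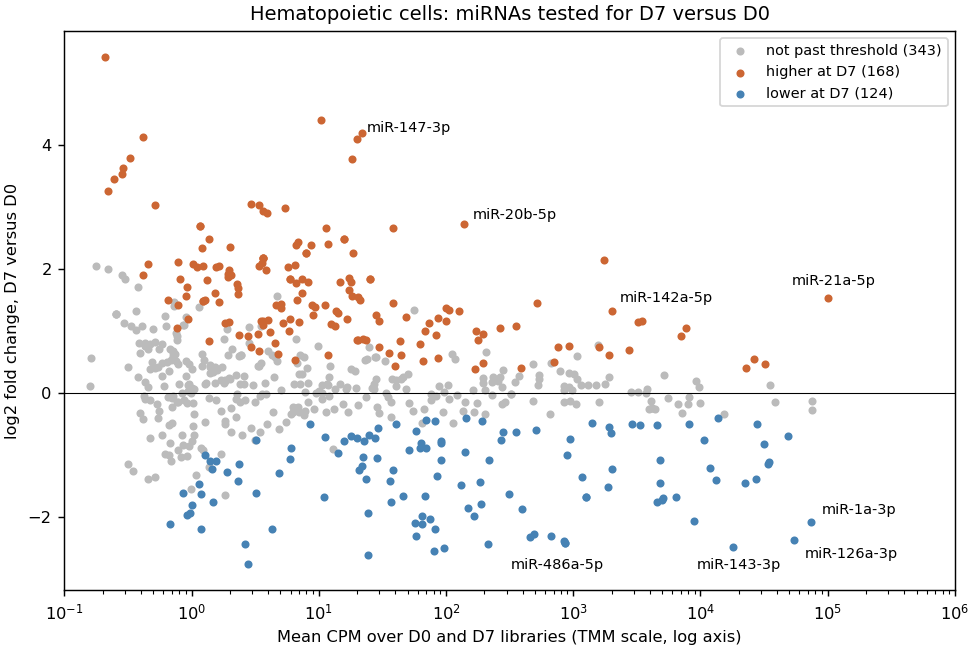
Each point is 1 of the 635 miRNAs tested, placed by its mean CPM over the 7 libraries (TMM scale, log axis) and its log2 fold change at D7 versus D0. Blue points (124, lower at D7) lie mostly at the abundant end on the right and orange points (168, higher at D7) mostly at the scarce end on the left, while grey points (343) did not pass the adjusted p threshold of 0.05.

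The miRNA with the highest mean in the HC libraries changed from a muscle miRNA to miR-21a-5p. At D0 the highest means were those of miR-1a-3p, miR-126a-3p, let-7a-5p, let-7f-5p and miR-26a-5p. In D0 replicate 4, miR-126a-3p, at 120231 CPM, stood above miR-1a-3p, at 112538 CPM. At D7 they were those of miR-21a-5p, let-7f-5p, let-7a-5p, miR-26a-5p and let-7g-5p. miR-21a-5p is induced in many stressed and activated cells and is abundant in macrophages. It stood at 42659, 48820 and 52191 CPM at D0 and at 129186, 131093, 106872 and 187236 CPM at D7. Every D7 library was above every D0 library, and the share of all mature counts that miR-21a-5p took went from a mean of 3.66% to one of 14.5%. Its log2 fold change was 1.53 (SE 0.18, edgeR adjusted p = 1.28e-07). The opposite arm, miR-21a-3p, was scarce, at 4.78 to 6.59 CPM at D0 and 21.9 to 36.2 CPM at D7, and its log2 fold change was 2.26 (SE 0.31). The mature miR-21a-5p lies at chr11:86584120-86584141 on the minus strand, in an exon of Vmp1.

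Both arms of the pan-leukocyte miRNA miR-142a rose and both arms of the myeloid miRNA miR-223 did not pass the test. Thus 2 of 4 members of the myeloid and pan-leukocyte list were higher and none was lower, against 26.5% of all miRNAs tested that were higher. miR-142a-5p was at 1300, 1058 and 906 CPM at D0 and at 3537, 2952, 1715 and 2681 CPM at D7, and miR-142a-3p was at 5310, 4049 and 4563 and then at 9509, 10811, 5758 and 9099 CPM. Neither arm overlapped between the days, and D7 replicate 3 was the lowest of its group on both. The log2 fold changes were 1.32 (SE 0.26) and 0.92 (SE 0.25), with adjusted p of 0.00019 and 0.0039 by edgeR. miR-223-3p was at 1037, 884 and 1003 CPM at D0 and at 1063, 933, 1342 and 1235 CPM at D7, overlapping, with a log2 fold change of 0.23 (SE 0.17, edgeR adjusted p = 0.28). With library size alone it passed the test at 0.69, and so did 3 of the 4 members, against 45.5% of all that rose on that scale. These miRNAs also set HCs apart from the other cell types. On the 4 days that the comparison does not use, miR-142a-3p had a mean of 8542 CPM in HCs, scaled by library size alone, against 16.4 in CMs, 11.9 in ECs and 41.8 in FBs, and miR-223-3p had 2178 against 5.49, 3.44 and 1.46. In HCs at D0, on the same scale, miR-142a-3p had a mean of 3560 CPM and miR-223-3p one of 747 CPM. Both lay below miR-1a-3p, at 100411 CPM, and miR-126a-3p, at 76507 CPM, which other heart cells make in large amounts. miR-142a lies in an intron of its host transcript Mir142hg, with miR-142a-5p at chr11:87756867-87756887.

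None of the 4 members of the lymphocyte list, the arms of miR-150 and miR-342, passed the test, and their median log2 fold change was 0.18. miR-150-5p, which is high in mature lymphocytes, was at 5136, 2934 and 3230 CPM at D0 and at 8024, 2239, 2406 and 2368 CPM at D7. D7 replicate 1 was thus above all other libraries and the other three D7 libraries below all D0 libraries, which gave a log2 fold change of 0.00 with an SE of 0.35. This SE leaves room for a change of either sign. miR-342-3p overlapped between the days, at 561, 390 and 493 CPM and then at 768, 581, 465 and 535 CPM.

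Of 14 members of the inflammation list, 5 rose and 1 fell, a count near the 26.5% of all miRNAs tested that rose, and the median log2 fold change was 0.48 against 0.15 for all miRNAs tested. The largest rise was that of both arms of miR-147, a miRNA that macrophages make on stimulation of Toll-like receptors. miR-147-3p was at 2.80, 1.42 and 1.72 CPM at D0 and at 36.1, 26.4, 34.4 and 38.2 CPM at D7, which rests on 30 to 58 counts per library at D0 and 317 to 563 at D7. Its log2 fold change was 4.09 (SE 0.33, edgeR adjusted p = 1.9e-09), and that of miR-147-5p was 4.18 (SE 0.31). The D7 libraries lay far above the D0 libraries on both arms. miR-147-5p lies at chr2:122640814-122640837 in an exon of AA467197. miR-146a-5p, a feedback inhibitor of Toll-like receptor signalling, moved the other way. It was at 46530, 37365 and 41973 CPM at D0 and at 28396, 19426, 25140 and 21962 CPM at D7, without overlap, and fell by 0.82 on the log2 scale (SE 0.17, edgeR adjusted p = 0.00034). Its minor arm miR-146a-3p, at 0.82 to 1.33 CPM at D0 and 1.58 to 3.32 CPM at D7, rose by 1.13 (SE 0.41). miR-155-5p, which activated leukocytes make, had 405, 133 and 163 CPM at D0 and 309, 300, 171 and 132 CPM at D7, and the difference of -0.04 (SE 0.31) was within the spread of the libraries. Both arms of miR-132 and of miR-212, and the arms of miR-146b, did not pass the test. With library size alone 10 of the 14 rose and none fell, against 45.5% of all that rose on that scale.

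Both arms of miR-210, the miRNA induced by hypoxia, were higher at D7. miR-210-3p was at 48.2, 48.8 and 51.5 CPM at D0 and at 99.7, 116, 110 and 133 CPM at D7, a log2 fold change of 1.21 (SE 0.24, edgeR adjusted p = 0.00019). Its mean was 425 CPM at D3 (SD 156, n = 4) and 114 CPM at D7 (SD 13.9, n = 4), a difference of -1.89 on the log2 scale (SE 0.22, edgeR adjusted p = 1e-06).

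Other large rises among abundant miRNAs were those of miR-34c-5p, miR-467a-5p, miR-7a-5p, miR-7b-5p, miR-222-3p, miR-15b-5p, miR-340-5p, miR-106b-5p and miR-34a-5p, with log2 fold changes from 0.94 to 1.33. The arms of miR-7a and miR-7b that carry the seed GGAAGAC rose together. miR-7a-5p was at 2180, 1568 and 2324 CPM at D0 and at 4477, 5062, 4079 and 4528 CPM at D7, with a log2 fold change of 1.16 (SE 0.15, edgeR adjusted p = 1.03e-06). miR-7b-5p differs from it within their shared length by A10U, counted from the 5′ end, and had nearly the same level in each library, so reads could have been split between the paralogs and the separate levels are uncertain. One of the loci of miR-7a lies in an intron of Hnrnpk on chromosome 13. miR-340-5p, from an intron of Rnf130, was at 5391, 4709 and 4355 CPM at D0 and at 9819, 9043, 8251 and 12630 CPM at D7. The days did not overlap, and its log2 fold change was 1.04 (SE 0.16).

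miR-222-3p and miR-221-3p share the seed GCUACAU, restrain cell cycle inhibitors in several cell types and lie near each other on chromosome X. Of the 4 arms of this pair, 3 rose and none fell, against 26.5% of all miRNAs tested that rose. miR-222-3p was at 218, 217 and 212 CPM at D0 and at 492, 477, 384 and 467 CPM at D7, with a log2 fold change of 1.08 (SE 0.14, edgeR adjusted p = 8.58e-07), and miR-221-3p rose by 0.60 (SE 0.14).

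All 6 members tested of the miR-34 list were higher at D7, against 26.5% of all miRNAs tested, with a median log2 fold change of 1.24. In it the miR-34 genes are p53 targets, and miR-449a-5p shares a seed with miR-34a-5p. miR-34a-5p was at 120, 128 and 138 CPM at D0 and at 203, 285, 176 and 325 CPM at D7, a log2 fold change of 0.94 (SE 0.26). miR-34c-5p was at 52.4, 53.0 and 63.1 CPM and then at 111, 127, 146 and 182 CPM, a log2 fold change of 1.33 (SE 0.20). miR-34c-5p was highest in FBs among the 4 cell types on the other days, at 1509 CPM against 139 in HCs, and its mean in HCs was 170 CPM at D14 (SD 14.3, n = 4) and 238 CPM at D28 (SD 60.6, n = 4). miR-449a-5p rested on D7 replicate 2, where it was at 29.1 CPM against 1.39 to 2.44 in the other D7 libraries. Without that replicate 5 of the 6 members passed the test.

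**Figure D2:**
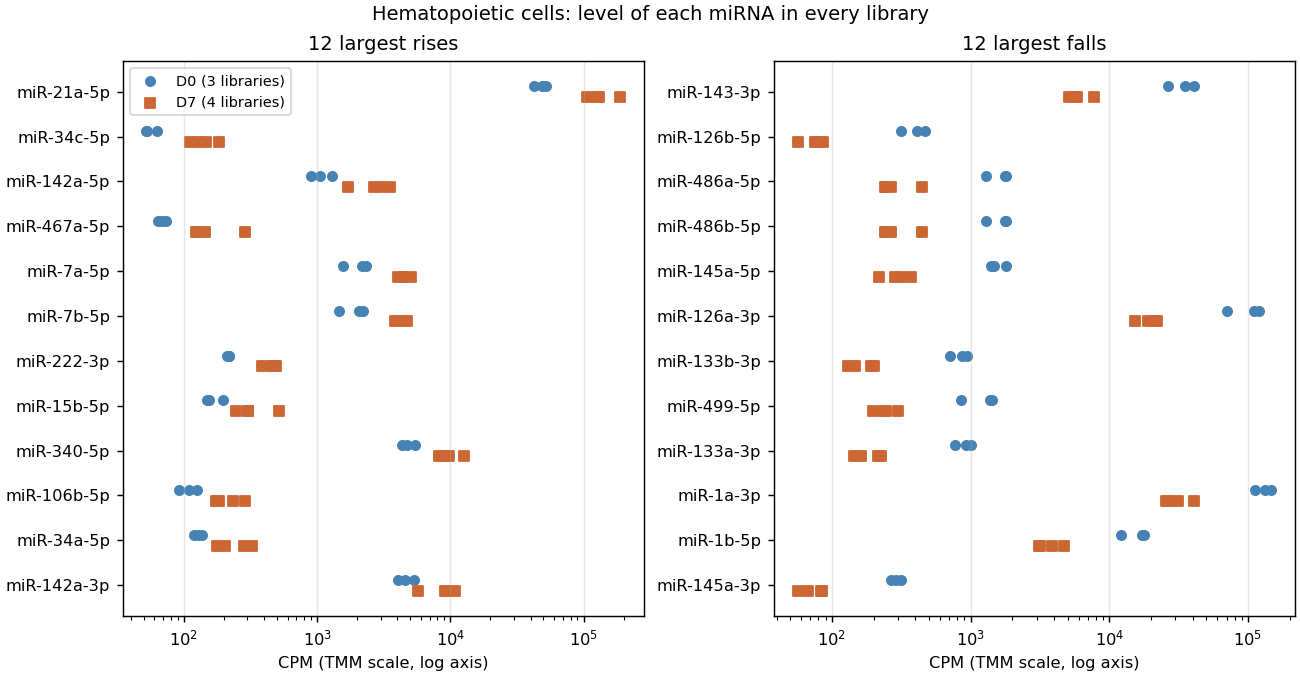
CPM (TMM scale, log axis) of the 12 miRNAs with the largest rises (left) and the 12 with the largest falls (right) at D7 versus D0, among called miRNAs of at least 100 CPM whose libraries did not overlap. Circles are the 3 D0 libraries and squares the 4 D7 libraries. In all 24 rows the circles and squares hold separate ranges, and the largest spread among squares is that of miR-467a-5p (123 to 288 CPM).

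The miR-17-92 cluster and its paralogs on chromosomes X and 5, which promote proliferation of blood progenitors, had 12 of 22 members tested higher and none lower, against 26.5% of all miRNAs tested, with a median log2 fold change of 0.66. Without D7 replicate 2 this count was 6 of 22, which is near the 23.3% of all miRNAs that rose without it, and with library size alone it was 20, against 45.5% of all. All 6 members with the seed AAAGUGC were higher when all D7 libraries were used. Without D7 replicate 2 not all of them passed, since the 6 members then called include miR-363-3p, which has another seed. miR-20a-5p was at 2346, 1625 and 2088 CPM at D0 and at 2637, 4826, 2405 and 3136 CPM at D7, with a log2 fold change of 0.69 (SE 0.23, edgeR adjusted p = 0.017). miR-93-5p was at 1255, 973 and 1227 CPM and then at 1706, 2489, 1577 and 1890 CPM, a log2 fold change of 0.73 (SE 0.19). miR-106b-5p, which lies in an intron of Mcm7 while miR-93-5p lies in an exon of the same gene, was at 126, 109 and 92.1 CPM and then at 184, 285, 173 and 232 CPM, a log2 fold change of 1.00 (SE 0.26). In each of the 3 the D7 libraries stood above D0 and D7 replicate 2 was the highest. miR-18a-5p rose by 1.21 (SE 0.23), whereas miR-19a-3p, miR-19b-3p, miR-92a-3p and miR-25-3p did not pass the test, with log2 fold changes of 0.48, 0.31, 0.18 and 0.29. The paralogs on chromosome X, miR-20b-5p, miR-18b-5p and miR-363, were set apart by a single library. miR-20b-5p was at 43.5, 24.7 and 30.6 CPM at D0 and at 92.7, 668, 42.7 and 61.7 CPM at D7, and its log2 fold change of 2.72 became 1.00 without D7 replicate 2. miR-17-5p and miR-106a-5p differ by U10A, so their reads may have been shared.

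D7 replicate 2 was also far above the other libraries for miR-128-3p and the miR-181 family. miR-181 acts in the development of lymphocytes. miR-128-3p was at 9106 CPM there, at 362 to 488 CPM in the other D7 libraries and at 551 to 626 CPM at D0. Its log2 fold change was 2.14 with that library (SE 0.80, edgeR adjusted p = 0.031) and -0.48 without it (adjusted p = 0.37). miR-181a-5p was at 7745, 8430 and 9586 CPM at D0 and at 5275, 23576, 5293 and 4942 CPM at D7, so that 3 D7 libraries lay below D0 and 1 far above. Of 9 members of the miR-181 family tested, 3 rose and 1 fell, against 26.5% and 19.5% of all miRNAs tested. Without D7 replicate 2 none rose and 5 fell, against 19.1% of all that then fell. In that fit miR-181a-5p fell by 0.73 on the log2 scale (edgeR adjusted p = 0.00093). Other miRNAs that were highest in that library were miR-130b-5p, at 270 CPM against 82.8 to 97.7 in the other D7 libraries, and miR-669c-5p, at 108 against 27.4 to 43.3. The miR-130 and miR-301 list, with 6 of 7 members higher and miR-130a-3p lower by 1.68 (SE 0.26), had the same counts without the replicate. Of all miRNAs tested, 26.5% were higher with the replicate and 23.3% without it.

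The list with the most rises was that of the miR-297, miR-466, miR-467 and miR-669 families. These repeat-rich families are best known from a large group of hairpins in an intron of the imprinted gene Sfmbt2 on chromosome 2, but the list was taken by family name. RefSeq gave a position for 5 of the tested members, all on other chromosomes, such as miR-467h on chromosome 9 outside any gene, and the places of the others were not checked. The tables list 80 members. Of the 56 tested, 48 were higher and none was lower, against 26.5% of all miRNAs tested that were higher, with a median log2 fold change of 1.88. Their summed level was 201 to 236 CPM at D0 and 424 to 1214 CPM at D7. The most abundant, miR-467a-5p, was at 68.7, 63.8 and 72.9 CPM at D0 and at 123, 288, 127 and 144 CPM at D7, a log2 fold change of 1.32 (SE 0.28, edgeR adjusted p = 0.00045). miR-669a-3p was at 3.86, 4.93 and 4.47 CPM and then at 22.6, 42.6, 12.9 and 20.1 CPM, a log2 fold change of 2.47 (SE 0.32). The D7 libraries were above D0 for both, with D7 replicate 2 highest. Without that replicate 41 members were higher, against 23.3% of all. Members such as miR-669a-5p and miR-669p-5p had identical counts in every library, so the members are not independent measurements. Between D7 and D14, 34 of the 56 were lower and none was higher, against 10.4% of all miRNAs tested called lower between these days. This count rested in part on single libraries. It was 14 of 56 without D7 replicate 2, against 3.62% of all, 20 without D14 replicate 4 and 24 without D14 replicate 1, and 8 of 44 in a fit of the 2 days alone, against 2.62% of all.

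The Dlk1-Dio3 cluster, an imprinted group of hairpins on chromosome 12 that is known from stem cells and mesenchymal tissue, had 30 of its 51 tested members higher and none lower, against 26.5% of all miRNAs tested, with a median log2 fold change of 1.06. In the tables it has 112 members. miR-379-5p was at 108, 116 and 140 CPM at D0 and at 174, 172, 291 and 239 CPM at D7, and miR-541-5p was at 48.6, 55.7 and 71.3 CPM and then at 104, 96.0, 193 and 128 CPM. Both stood higher in every D7 library, with D7 replicate 3 the highest, and their log2 fold changes were 0.85 (SE 0.24) and 1.15 (SE 0.24). FBs held more of these miRNAs, with 1778 CPM of miR-379-5p on the days outside the comparison against 130 in HCs. The FB markers miR-199a-5p and miR-214-3p did not pass the test under TMM, with log2 fold changes of 0.12 (SE 0.21) and 0.21 (SE 0.22). With library size alone both were called higher, at 0.58 and 0.68 (edgeR adjusted p of 0.020 and 0.010). On that scale miR-199a-5p was at 792 to 923 CPM at D0 and at 973 to 1533 CPM at D7, without overlap, and the part of FB RNA in the rise of the cluster was not tested.

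The falls were led by miRNAs that other heart cells make in large amounts. All 6 members of the cardiomyocyte list were lower at D7, against 19.5% of all miRNAs tested, with a median log2 fold change of -2.18. miR-1a-3p, the main miRNA of heart and skeletal muscle, was at 146336, 133663 and 112538 CPM at D0 and at 31038, 26490, 40647 and 25817 CPM at D7. It fell by 2.08 on the log2 scale (SE 0.21, edgeR adjusted p = 2.15e-08), and its share of the mature counts went from a mean of 10.0% to 3.29%. miR-499-5p, encoded in an intron of the myosin gene Myh7b, was at 1389, 1435 and 849 CPM and then at 246, 199, 302 and 238 CPM, a fall of 2.31 (SE 0.26). miR-208a-3p, which a cardiac myosin gene hosts, was at 110, 159 and 127 CPM and then at 42.5, 23.1, 34.8 and 29.5 CPM, a fall of 2.03 (SE 0.30). miR-133a-3p and miR-133b-3p fell by 2.28 and 2.33. On the TMM scale every D7 library was below every D0 library for each of the 6. No member was at 0 on either day, and the summed level of the list was 114994 to 149795 CPM at D0 and 26359 to 41394 CPM at D7. With library size alone 5 of the 6 fell, against 11.5% of all that fell on that scale. There the scarce miR-208b-3p overlapped between the days, at 1.21 to 2.06 CPM at D0 and 0.608 to 1.43 CPM at D7. CMs themselves held a mean of 484597 CPM of miR-1a-3p on the other days. In bulk samples fewer cells of a type and less RNA per cell cannot be told apart, and the part of other cells in these falls was not tested. miR-1b-5p, whose gene lies opposite one of the miR-1a genes, fell by 2.07. It was at 17226, 17654 and 12113 CPM at D0 and at 3845, 3129, 4733 and 3175 CPM at D7. Since the counting is not stated to have used strand, reads of miR-1a-3p and miR-1b-5p may not be told apart. The 2 falls are therefore not taken as independent.

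Both arms of the endothelial miRNA miR-126a were lower. miR-126a-3p was at 70510, 109993 and 120231 CPM at D0 and at 18988, 15213, 21926 and 20965 CPM at D7, a fall of 2.38 (SE 0.22, edgeR adjusted p = 6.89e-09), and its highest mean was in ECs, at 191363 CPM on the other days against 29581 in HCs. miR-126a-5p fell by 1.67 (SE 0.21). The 2 arms summed to 72342 to 122356 CPM at D0 and to 15684 to 22549 CPM at D7. miR-126b-5p fell by 2.43 (SE 0.23), but it is not independent of miR-126a-3p. The mature miR-126a-3p lies at chr2:26591402-26591423 on the plus strand in an exon of Egfl7 and miR-126b-5p at chr2:26591399-26591420 on the minus strand. They overlap by 19 bases, the level of miR-126b-5p was 0.340% to 0.446% of that of miR-126a-3p in each of the 7 libraries, and the counting is not stated to have used strand, so reads of the pair cannot be told apart.

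Of 6 members of the fibroblast and mural list, 2 fell and none rose, against 19.5% of all miRNAs tested that fell. With library size alone 2 fell and 2 rose, the latter being miR-199a-5p and miR-214-3p. Those that fell were miR-143-3p and miR-145a-5p, which smooth muscle cells and pericytes express. miR-143-3p was at 26287, 40862 and 35418 CPM at D0 and at 5866, 5134, 7752 and 5572 CPM at D7, a fall of 2.49 (SE 0.21, edgeR adjusted p = 3.17e-09), the largest among the abundant miRNAs whose libraries did not overlap. miR-145a-5p fell by 2.39 (SE 0.25), with 1406 to 1813 CPM at D0 and 220 to 370 CPM at D7. miR-199a-3p and miR-199b-3p, which had the same counts in every library, were at 4418 to 4731 CPM and then at 3151 to 4643 CPM, with a log2 fold change of -0.25 (SE 0.19), and did not pass the test.

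Of 7 members of the erythroid list 6 fell, against 19.5% of all miRNAs tested, and the median log2 fold change was -2.43. With library size alone 4 fell, against 11.5% of all, and without D7 replicate 2, 5 fell, against 19.1% of all. The list holds both arms of miR-486a and of miR-486b, and its median is the value of miR-486a-5p. miR-486a-5p and miR-486b-5p, with identical counts, were at 1297, 1763 and 1801 CPM at D0 and at 267, 243, 450 and 247 CPM at D7, a fall of 2.43 (SE 0.25, edgeR adjusted p = 2.32e-08). miR-486 is also expressed in striated muscle, and on the other days its highest mean was in CMs, at 2268 CPM. miR-451a, which is largely restricted to red cells, was at 162, 162 and 66.7 CPM at D0 and at 50.1, 55.5, 88.7 and 50.8 CPM at D7. Its days overlapped, and its fall of 1.09 (SE 0.42) was smaller.

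Where the called miRNAs are most abundant was read from days the comparison does not use. These days also follow the infarct, and many changes of HCs at D7 were present on them. At D3 versus D0 the median log2 fold change was 2.51 for the miR-297, miR-466, miR-467 and miR-669 list and -1.68 for the cardiomyocyte list. The cell type with the highest mean is therefore not independent of the direction of the calls. For each miRNA the cell type with the highest mean CPM at D1, D3, D14 and D28 was taken, with library size as the scaling. HCs held the highest mean for 124 of the 168 miRNAs that rose, or 73.8%, for 347 of all 635 tested, or 54.6%, and for 19 of the 124 that fell, or 15.3%. CMs or ECs held it for 4 of those that rose, or 2.38%, and for 75 of those that fell, or 60.5%, against 24.9% of all tested. When the rows of the cardiomyocyte, endothelial and fibroblast and mural lists were removed before scaling, 189 miRNAs were higher and 102 lower.

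**Figure D3:**
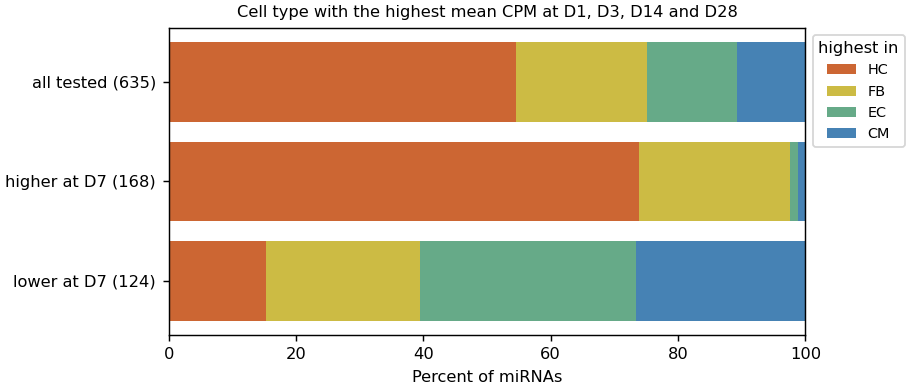
Bars show the percent of miRNAs whose highest mean CPM at D1, D3, D14 and D28 was in HCs, FBs, ECs or CMs, for all 635 tested, the 168 higher at D7 and the 124 lower at D7. HCs take 73.8% of the bar of miRNAs that rose and 15.3% of that of miRNAs that fell.

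Several broadly expressed families were lower at D7 as well. In the miR-99, miR-100 and miR-125 list, whose members act in blood stem cells and myeloid cells, 7 of 9 tested fell and none rose, against 19.5% of all that fell, with a median log2 fold change of -1.08. miR-99a-5p was at 39662, 43163 and 42904 CPM at D0 and at 14956, 13268, 19760 and 16322 CPM at D7, a fall of 1.38 (SE 0.19, edgeR adjusted p = 1.2e-06). miR-100-5p, which differs from it by U16A, fell by 1.45 (SE 0.20). miR-125a-5p was at 9149, 10092 and 12230 CPM and then at 3119, 2339, 4431 and 3199 CPM, a fall of 1.68 (SE 0.22), and miR-125b-5p fell by 1.46 (SE 0.19). No library of D7 reached the D0 range in these. With library size alone 6 of the 9 fell and none rose, against 11.5% of all that fell on that scale. miR-99a-5p and miR-125a-5p had higher means in FBs than in HCs on the other days, at 45102 against 19525 CPM and at 9721 against 4398 CPM.

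In the miR-30 family 9 of 11 fell and none rose, against 19.5% of all miRNAs tested that fell, with a median of -1.14. miR-30a-5p was at 47326, 49368 and 50796 CPM at D0 and at 21116, 18606, 25335 and 23981 CPM at D7, a fall of 1.14 (SE 0.15, edgeR adjusted p = 8.1e-07). miR-30e-5p, which differs by C13U, fell by 1.41 (SE 0.15), miR-30c-5p by 1.21 (SE 0.15) and miR-30d-5p by 1.12 (SE 0.16). The exceptions were miR-30b-5p, at 0.12 (SE 0.21), and miR-30d-3p, at 0.00 (SE 0.22). With library size alone 7 fell and 1 rose, against 11.5% of all that fell on that scale.

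**Figure D4:**
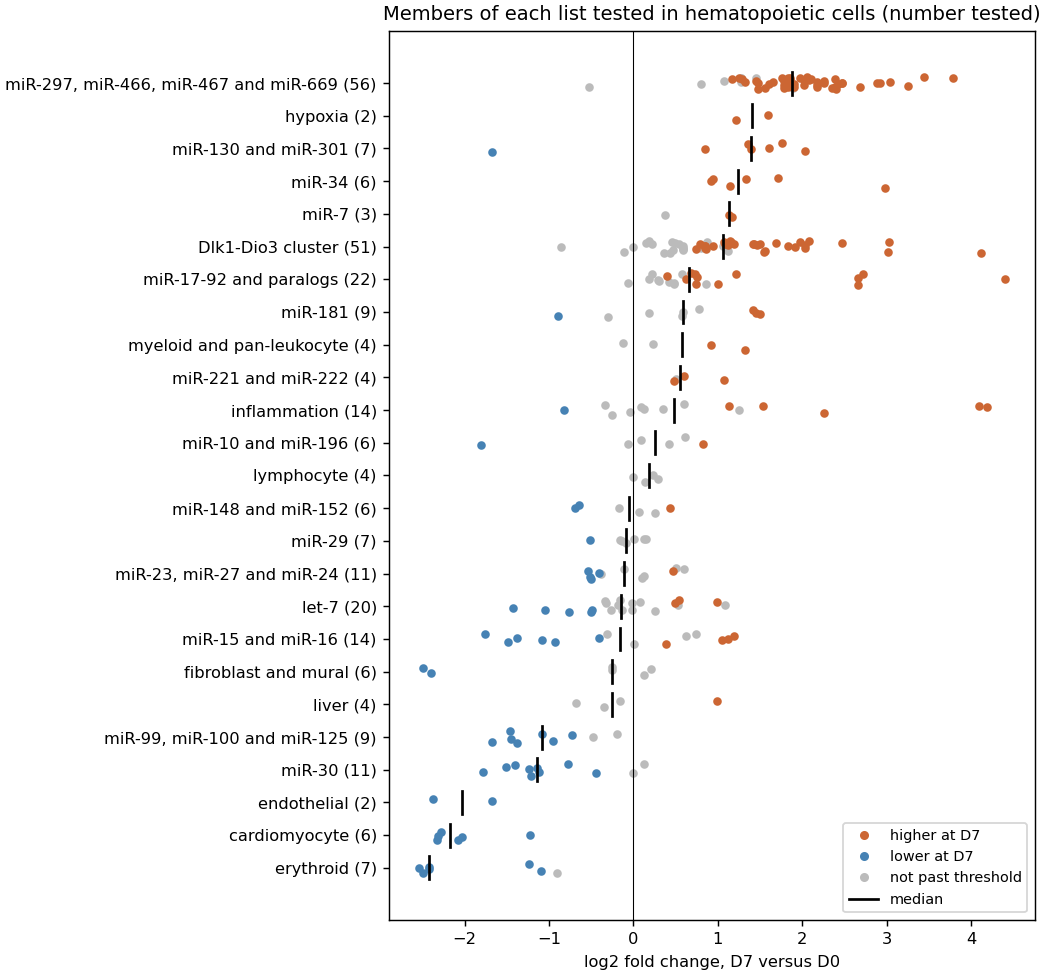
Log2 fold change at D7 versus D0 of each tested member of 25 lists, with the number tested in parentheses and a black bar at the median. The list of the miR-297, miR-466, miR-467 and miR-669 families (median 1.88) is at the top and the cardiomyocyte (-2.18) and erythroid (-2.43) lists are at the bottom; orange and blue points passed the test and grey points did not.

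let-7, the most abundant family, changed unevenly. Of 20 members tested 3 rose and 5 fell under the TMM scaling, and 11 rose and 1 fell with library size alone. Of all miRNAs tested, 26.5% rose and 19.5% fell under TMM, and 45.5% and 11.5% with library size alone. let-7i-5p was at 22077, 19676 and 21515 CPM at D0 and at 32317, 34493, 25130 and 30655 CPM at D7, a log2 fold change of 0.54 (SE 0.14, edgeR adjusted p = 0.0026). let-7b-5p moved the other way, from 12945, 13626 and 15388 CPM to 7112, 8744, 9536 and 7648 CPM, a fall of 0.76 (SE 0.15). Both share the seed GAGGUAG and neither overlapped between the days. let-7a-5p and let-7f-5p did not pass the test, at -0.27 (SE 0.13) and -0.14 (SE 0.13). The unequal change of let-7i-5p and let-7b-5p does not depend on the scaling, since both were counted in the same libraries.

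Members of the miR-15 and miR-16 family, which share the seed AGCAGCA in most 5p arms and restrain cyclins, also split. Of 14 tested 4 rose and 6 fell, or 7 and 4 with library size alone. For this list and those below, the shares of all miRNAs tested were 26.5% higher and 19.5% lower, or 45.5% and 11.5% with library size alone. miR-15b-5p, from an intron of Smc4, was at 195, 149 and 154 CPM at D0 and at 305, 520, 247 and 304 CPM at D7, a log2 fold change of 1.05 (SE 0.21). miR-195a-5p was at 166, 226 and 233 CPM and then at 66.6, 57.9, 91.4 and 80.4 CPM, a fall of 1.49 (SE 0.20). miR-16-5p did not pass the test, at 0.01 (SE 0.14). In the miR-23, miR-27 and miR-24 list 1 of 11 rose and 4 fell, but with library size alone 5 rose and none fell. miR-27b-3p rose by 0.47 (SE 0.13) while miR-23b-3p, from the same cluster, fell by 0.50 (SE 0.13). The miR-29 family had 1 of 7 lower, and miR-29a-3p was at -0.09 (SE 0.19). In the miR-148 and miR-152 list 1 rose and 2 fell of 6, and in the miR-10 and miR-196 list 1 rose and 1 fell of 6. One of 4 members tested of the liver list, miR-194-2-3p, was higher, and miR-122-5p, the main miRNA of hepatocytes, was at 2.84 to 3.38 CPM at D0 and 1.70 to 2.23 CPM at D7.

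The ratio of the 5p to the 3p arm within a library does not depend on its scaling. It was tested with limma for the 154 miRNAs whose arms both averaged 10 counts or more, and 21 differed between D7 and D0, or 13.6%, with 9 ratios higher (5.84%) and 12 lower (7.79%). Where both arms averaged 50 counts or more, the largest falls were those of miR-467d, miR-30d, miR-467c and miR-467b. The log2 ratio of miR-30d was 10.3, 10.5 and 10.7 at D0 and 9.37, 9.29, 9.70 and 9.25 at D7, a difference of -1.12 (SE 0.34, limma adjusted p = 0.037). Its 5p arm fell by 1.12 on the log2 scale, and its 3p arm was at 0.00 (SE 0.22). For miR-467c the difference was -1.09 (SE 0.21, limma adjusted p = 0.008). The largest rises were those of miR-23b, miR-503, miR-338 and miR-340, with differences of 1.10, 1.04, 0.90 and 0.87. miR-340 had a log2 ratio of 4.04, 3.87 and 3.75 at D0 and of 4.98, 4.56, 4.53 and 4.95 at D7, without overlap. These counts depend on single libraries. Without D0 replicate 4, 4 ratios passed the test, without D0 replicate 1, 5, and without D7 replicate 2, 6.

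D7 was then set beside the neighbouring days. Between D3 and D7, 173 of the 635 miRNAs differed, or 27.2%, with 114 higher at D7 (18.0%) and 59 lower (9.29%). The Dlk1-Dio3 cluster accounted for 39 of those that rose, and none of its 51 members fell. miR-379-5p had a mean of 68.0 CPM at D3 (SD 27.6, n = 4) and of 219 CPM at D7 (SD 57.4, n = 4), a log2 difference of 1.68 (SE 0.23, edgeR adjusted p = 1e-05). In the same interval 8 of 9 members of the miR-99, miR-100 and miR-125 list were higher, as were 4 of 6 of the fibroblast and mural list, with miR-199a-5p at 1.00 (SE 0.20). miR-223-3p fell, from 2482 CPM (SD 371, n = 4) to 1143 CPM (SD 181, n = 4), by 1.12 on the log2 scale (SE 0.16, edgeR adjusted p = 1.1e-05), and miR-7a-5p fell by 0.94 (SE 0.14). All 4 members of the lymphocyte list were higher at D7 than at D3, but 2 without D7 replicate 1 and 1 in a fit of these days alone. miR-21a-5p did not pass the test, at 0.08 (SE 0.16). A fit of D3 and D7 alone called 55 higher and 49 lower, and 28 of 40 members of the Dlk1-Dio3 cluster were higher in it.

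Between D7 and D14, 116 miRNAs differed, or 18.3%, with 50 higher at D14 (7.87%) and 66 lower (10.4%). All 6 members of the cardiomyocyte list, both of the endothelial list and all 6 of the fibroblast and mural list were higher at D14. Of the 2 endothelial members 1 was called without D7 replicate 2 and none without D14 replicate 4, while the other lists kept 5 or 6 of their 6 calls with any 1 library left out. miR-1a-3p went from 30998 CPM (SD 6838, n = 4) to 55107 CPM (SD 8787, n = 4), a log2 difference of 0.83 (SE 0.20, edgeR adjusted p = 0.0049). miR-7a-5p fell by 0.86 (SE 0.14) to 2496 CPM at D14 and miR-142a-5p by 0.71 (SE 0.23). The count over all miRNAs rested on single libraries, with 51 miRNAs called without D7 replicate 2, 56 without D14 replicate 4 and 77 without D14 replicate 1, and 48 in a fit of the 2 days alone.

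**Figure D5:**
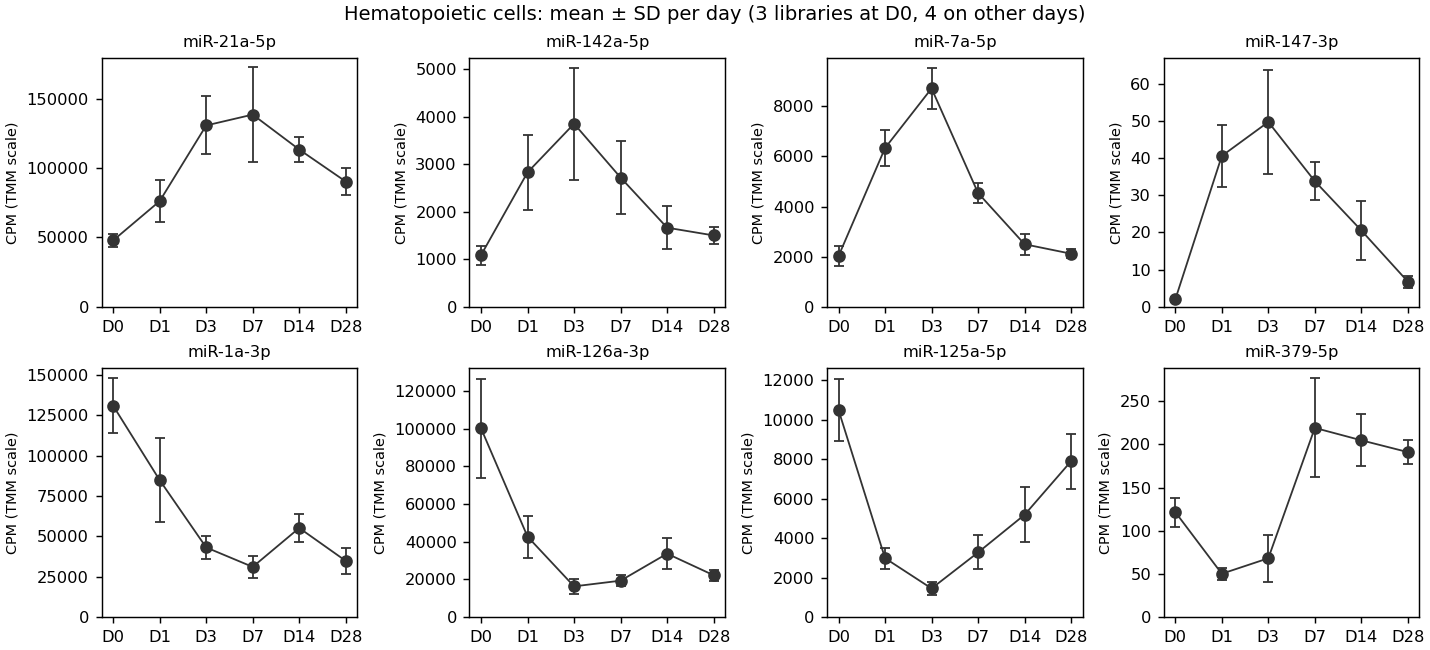
Mean CPM (TMM scale, linear axes from 0) of 8 miRNAs in HCs on each day, with bars for the SD over 3 libraries at D0 and 4 on other days. The mean of miR-21a-5p is highest at D7 (138597 CPM), that of miR-7a-5p at D3 (8707 CPM) and that of miR-1a-3p at D0 (130845 CPM), and the mean of miR-379-5p is lowest at D1 (50.1 CPM) and highest at D7 (219 CPM).

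The change of HCs at D7 was compared with that of FBs, which were made into libraries from the same amount of RNA with the same number of PCR cycles. The difference of the changes was tested over 716 miRNAs, with 3 D0 and 4 D7 libraries of HCs and 4 and 4 of FBs, and 171 differed, or 23.9%. Of these 78 changed more upward in HCs (10.9%) and 93 more downward (13.0%), a split that library size alone turned into 142 and 68 and that was 29 and 124 without D7 replicate 2 of the HCs. The pools of both cell types at a time point came from the same mice, which this fit did not use, and whether equal numbers mark the same mice is not stated. With the HC and FB pools of one day and number as a block, 107 differed, 33 upward and 74 downward. The paper left out an FB D0 replicate as an outlier and does not say which, and all 4 were kept here. In the fit without the block, leaving out any FB D0 library in turn gave 34 to 58 upward and 104 to 137 downward. The levels of this paragraph are CPM scaled over both cell types. Among called miRNAs that averaged at least 100 CPM, miR-155-5p had the most negative difference, at -2.82 (SE 0.42, edgeR adjusted p = 1.91e-06). Its mean in FBs was 8.38 CPM at D0 (SD 2.99, n = 4) and 57.9 CPM at D7 (SD 22.3, n = 4), a log2 change of 2.71, against 189 and 175 CPM in HCs. miR-143-3p differed by -2.62 (SE 0.29), with a change of 0.09 in FBs, miR-126a-3p by -2.22 (SE 0.36) and miR-204-5p by -2.10 (SE 0.40). In the other direction, miR-142a-5p differed by 2.38 (SE 0.55), with 23.6 CPM at D0 and 10.4 CPM at D7 in FBs against 896 and 2124 CPM in HCs. These differences passed the test with the block as well. miR-222-3p differed by 1.45 (SE 0.20), since it rose in HCs and fell by 0.43 in FBs. miR-29a-3p, which represses collagen genes, differed by 1.30 (SE 0.38), but by 0.96 with the block, where it did not pass (edgeR adjusted p = 0.11). It went from 10372 CPM (SD 4805, n = 4) to 3824 CPM (SD 1183, n = 4) in FBs and from 4710 to 4285 CPM in HCs, where the change did not pass the test.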

How the data were processed

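Small RNA was measured in 96 libraries of 4 heart cell types. Per the labels and the methods of the study, the authors trimmed adaptors with Trim Galore and aligned reads to mature miRBase sequences with the nf-core small RNA pipeline, and Bowtie2 and SAMtools are among the tools named. Aligner settings and the use of strand are not given in the sources used here. What the authors deposited are unnormalized counts, 1 number per mature miRNA and library. The row of unmatched reads was left out of library sizes and tests. Hairpin tables were not used.

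HC libraries of all days with at least 100000 counts (23) were fitted with edgeR 4.0.16 in R 4.3.3, with TMM, filterByExpr by day and the quasi-likelihood test, day as the only term, Benjamini-Hochberg adjustment and a threshold of 0.05, so that the days share 1 estimate of spread. HC and FB libraries (47) were fitted together for the difference of changes. Arm ratios, log2 of counts with a pseudocount of 0.5, were tested with limma 3.58.1. D7 and D0 libraries come from different mice and were not paired. In HCs 40 sets of mature sequences (132 in all) had identical counts in every library. CPM of 1 count was 0.0452 to 0.0483 at D0 and 0.0678 to 0.114 at D7. The scripts were tested on simulated data.

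The miRNAs named with values are the 12 largest rises and falls among called miRNAs of at least 100 CPM without overlap, list members of at least 10 CPM, the 5 highest per day, and the 4 largest changes of arm ratio each way with at least 50 counts per arm. The 5 largest differences from FBs each way, among called miRNAs of at least 100 CPM, are named as well. Others, such as scarce partner arms, miR-128-3p and miR-449a-5p, were named after their values were seen. The members and lists were chosen with earlier results of these data known. Alternatives were DESeq2 1.42.0, RLE factors, library size alone, no filter, the replicate number as a block, the shallow D0 library kept, identical rows counted once, a fit of the compared days alone, other count minimums and pseudocounts for arms, and each library left out in turn. Removing the rows of the cardiomyocyte, endothelial and fibroblast and mural lists, and a block of the HC and FB pools of one day and number, were added after the data were seen. Positions are those of GRCm38.p6, with genes from GENCODE release M21, and the build named by the submitters is mm10.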

Additional observations from a re-analysis of the deposited data

Results flagged for a closer look

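In 12 of 182 groups of 4 D7 libraries examined, 1 library lay farther from the other three than Dixon's 95% limit, where chance flags about 1 in 20 groups. D7 replicate 2 was the highest library for 6 of them: miR-181a-5p at 23600 CPM against 4940 to 5290, miR-181b-5p at 5230 against 769 to 836, miR-181d-5p at 3400 against 515 to 579, miR-181a-1-3p at 2100 against 217 to 267, miR-130b-5p at 270 against 82.8 to 97.7 and miR-18b-5p at 60.6 against 2.97 to 3.87 CPM. D7 replicate 3 was highest for miR-486a-5p and miR-486b-5p, which share their counts, at 450 CPM against 243 to 267, and for miR-409-3p at 42.7 against 19.2 to 20.4. D7 replicate 4 was highest for miR-10a-3p at 70.1 against 47.9 to 49.0 and lowest for miR-30e-3p at 990 against 1370 to 1420 CPM. D7 replicate 1 was highest for miR-150-5p, at 8020 against 2240 to 2410 CPM.

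The change at D7 differed between HCs and FBs for 171 of 716 miRNAs by the test of the difference itself (edgeR, adjusted p under 0.05), and the 5 largest differences each way among those of at least 100 CPM are given here. The log2 change in HCs minus that in FBs was -2.82 for miR-155-5p, -2.62 for miR-143-3p, -2.22 for miR-126a-3p, -2.18 for miR-126b-5p and -2.10 for miR-204-5p. It was 2.38 for miR-142a-5p, 1.65 for miR-142a-3p, 1.45 for miR-222-3p, 1.34 for miR-181a-1-3p and 1.30 for miR-29a-3p. For miR-181a-1-3p the difference was -0.25 (edgeR adjusted p = 0.56) without HC D7 replicate 2. For miR-142a-3p neither the change in HCs (edgeR adjusted p = 0.11) nor that in FBs (0.12) passed by itself in this joint fit.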

How the results depend on the processing

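The D7 versus D0 count of 292 was 289 to 303 with RLE factors, DESeq2, no filter, the shallow D0 library kept and the marker rows removed, 284 with identical rows counted once and 276 in a fit of these days alone, and 260 to 304 with each library left out (147 to 180 higher, 107 to 127 lower). Library size alone gave 289 higher and 73 lower, and reversed let-7f-5p (0.32), let-7g-5p (0.30), let-7a-1-3p and let-7c-2-3p (0.43), let-7d-5p (0.28), miR-10b-5p (0.40), miR-24-3p (0.052), miR-322-5p (0.048) and miR-30b-3p (0.017). Leaving out D7 replicate 2 reversed miR-181a-5p (-0.73 to 0.41 over the libraries left out), miR-181b-5p (-0.48 to 1.04), miR-181d-5p (-0.62 to 0.85) and miR-181a-1-3p (-0.068 to 1.75, and -0.25 to 1.51 for HCs minus FBs), with the lowest value of each without that replicate. D7 versus D3 gave 104 (55 higher) in a fit of these days alone and 142 to 198 with a library left out (91 to 117 higher, 46 to 87 lower). D14 versus D7 gave 48 (14 lower) in a fit of these days alone, 32 higher without the marker rows, and 51 to 150 with a library left out (28 to 64 higher, 23 to 86 lower). HCs minus FBs gave 142 higher with library size alone, 44 without a filter and 29 without the marker rows (147 lower), and 127 to 203 with a library left out (29 to 76 higher, 83 to 139 lower). With a replicate block of the HC and FB pools of one day and number, chosen after the data were seen, it gave 107 (33 higher), and miR-142a-3p (1.33), miR-181a-1-3p (0.66) and miR-29a-3p (0.96) no longer passed. Arm ratios gave 11 (3 higher) without a count minimum, 9 (5 higher, 4 lower) with the shallow library, and 4 to 22 with a library left out (0 to 10 higher, 4 to 12 lower). The causes of these shifts were not tested.

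With the replicate number as a block, 291 miRNAs differed between D7 and D0, of which 284 were shared with the 292, and 20 arm ratios. With the number as a block within each cell type, 164 changes differed between HCs and FBs (68 higher, 96 lower), and miR-181a-1-3p no longer passed (1.14, edgeR adjusted p = 0.069). The deviations of same-numbered D0 and D7 libraries correlated at 0.29, -0.31 and 0.09 over 309 miRNAs, and those of same-numbered HC and FB libraries of a day at -0.14 to 0.095 over 313, so the number was not taken to pair them. The lower depth at D7 limits miRNAs of a few CPM most.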
